A study of Rattus norvegicus with 24 samples.

Results

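Glutathione transferases, UDP-glucuronosyltransferases and sulfotransferases are the main conjugating enzymes of liver. They were examined here as 37 genes of the 13438 genes that arrays measured in livers of male rats of the Sprague Dawley strain. The members were the genes named Gst (alpha, mu, pi, theta, kappa, omega and zeta classes), Mgst, Ugt or Sult on a probe set that names 1 gene, with Gsta3, Gstp1 and Gstm1 left out. They comprised 17 glutathione transferases, 8 genes named Ugt, termed UDP-glucuronosyltransferases here, and 12 sulfotransferases, chosen by name and not by expression. The 8 include Ugt8, which makes galactosylceramide and is counted by its name. Where a gene had several such probe sets, as 4 members did, the one with the highest mean over all arrays was used. A further 9 probe sets of these families name several genes and were not used, so that no gene of the Ugt1 locus was measured.

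The rats were 8 weeks old and received 1 intragastric dose of ANIT (alpha-naphthylisothiocyanate, an agent that injures bile duct epithelium and hepatocytes) at 50 mg/kg in corn oil, or corn oil alone at the same 10 ml/kg. Necropsy was at 24 h, which the labels give as peak injury, or at 120 h, given as its resolution. Each of the 4 groups (vehicle 24 h, ANIT 24 h, vehicle 120 h, ANIT 120 h) held 6 separate rats, 1 per array. All were fasted overnight for about 18 h and were injected with 100 mg/kg bromodeoxyuridine about 2 h before necropsy. Values are log2 expression values, so a difference of 1 is a doubling of signal, and the number of arrays limits their precision. Genes with an adjusted p under 0.05 are termed called, from a limma fit of the 4 groups with Benjamini-Hochberg adjustment across all genes. Changes carry the standard error of that fit.

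Glutathione transferases join the thiol of glutathione to electrophilic compounds. UDP-glucuronosyltransferases add glucuronic acid from UDP-glucuronate in the endoplasmic reticulum, and sulfotransferases add sulfate from the donor PAPS in the cytosol. The conjugates are more soluble in water and leave hepatocytes by membrane exporters into bile or blood. ANIT is itself conjugated with glutathione in hepatocytes and exported into bile, where the conjugate can release it again. Many of these genes are known targets of NRF2, which acts at antioxidant response elements, of the aryl hydrocarbon receptor, which acts at xenobiotic response elements, and of the nuclear receptors CAR and PXR. In rats several of them also differ between the sexes, with Sult1e1 and Sult1c3 predominant in male liver and the Sult2a genes in female liver.

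Before the values, the promoter windows of 4 members are shown, chosen for their changes after ANIT. Gstm4 and Gstp3 had the largest called rise and fall of the glutathione transferases at 24 h, and Sult1c3 had the largest called fall of the sulfotransferases. Ugt2b15 was called at neither time and is the 1 glucuronosyltransferase called for the difference between times, though not in every model fitted. Sequences are from RefSeq on the GRCr8 assembly, 5′ to 3′ on the strand of the gene, from 250 bases before the annotated start to 50 after it. Capitals mark a match to the xenobiotic response core GCGTG or its other strand CACGC.
Gstm4: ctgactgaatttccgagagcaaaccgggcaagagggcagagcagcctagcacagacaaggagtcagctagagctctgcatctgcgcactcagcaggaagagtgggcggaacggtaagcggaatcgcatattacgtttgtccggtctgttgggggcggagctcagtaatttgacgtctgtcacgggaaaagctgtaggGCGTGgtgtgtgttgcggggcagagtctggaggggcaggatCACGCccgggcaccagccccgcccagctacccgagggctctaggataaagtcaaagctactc
Gstp3: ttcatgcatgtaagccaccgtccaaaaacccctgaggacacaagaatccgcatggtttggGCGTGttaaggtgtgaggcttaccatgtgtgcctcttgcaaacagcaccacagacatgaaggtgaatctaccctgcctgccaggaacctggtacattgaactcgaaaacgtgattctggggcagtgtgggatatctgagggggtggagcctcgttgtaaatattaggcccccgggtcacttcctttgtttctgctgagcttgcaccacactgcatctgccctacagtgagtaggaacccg
Sult1c3: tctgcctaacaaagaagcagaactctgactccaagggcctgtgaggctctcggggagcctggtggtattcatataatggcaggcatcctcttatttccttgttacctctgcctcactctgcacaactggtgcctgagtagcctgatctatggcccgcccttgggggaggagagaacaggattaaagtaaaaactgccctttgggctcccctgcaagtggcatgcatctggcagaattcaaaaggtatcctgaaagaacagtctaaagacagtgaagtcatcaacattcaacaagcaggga
Ugt2b15: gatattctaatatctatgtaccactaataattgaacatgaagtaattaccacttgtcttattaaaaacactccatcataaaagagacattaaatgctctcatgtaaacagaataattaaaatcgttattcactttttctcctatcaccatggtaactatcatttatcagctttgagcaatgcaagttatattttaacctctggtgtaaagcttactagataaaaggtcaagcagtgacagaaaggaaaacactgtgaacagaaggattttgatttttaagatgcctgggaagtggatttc
The windows lie at chr2:198373334-198373633 (Gstm4, minus strand), chr1:210787635-210787934 (Gstp3, minus strand), chr9:7594207-7594506 (Sult1c3, minus strand) and chr14:21122616-21122915 (Ugt2b15, plus strand). Gstm4, the member that rose at 24 h, held the core at positions -53 to -49 and, on the other strand, at -12 to -8. Gstp3, the member with the largest called fall, held it at -190 to -186. The windows of Sult1c3 and Ugt2b15 held none of the letters searched.

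A window was at hand for 31 members, and 6 members, Gstt2 among them, had none. The xenobiotic response core stood in 7 of the 31 windows (22.6%), against 31.1% of the 27457 windows of all genes. The antioxidant response core TGACNNNGC, searched with GCNNNGTCA, stood in 4 (12.9%), against 12.2% of all. Its holders were Gsta1, Gstm5, Gstm7 and Gstz1, and in Gstm5 1 of its matches shares bases with a match to the xenobiotic response core. The HNF1 core GTTAAT, searched with ATTAAC, stood in 3 (9.7%), against 7.4% of all, namely Gsta1, Sult2a2 and Sult2a6. In the hydroxysteroid sulfotransferase genes Sult2a2 and Sult2a6 this core lay at -64 to -59 and at -73 to -68. A match describes letters only. The members share neighbourhoods as well: 5 mu-class windows are on chromosome 2, 6 Ugt2 windows on chromosome 14 and 4 Sult2 windows on chromosome 1.

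The liver sample was dominated by hepatocyte transcripts. The mean level of 9 hepatocyte markers lay between 12.05 and 12.26 in vehicle rats at 24 h and between 12.09 and 12.31 in ANIT rats, with Alb, albumin, averaging 13.20 over all arrays. The spiked control level of the arrays, the mean of 18 control probe sets, ranged widely between arrays. At 24 h vehicle rats averaged 11.01 ± 0.38 (SD, n = 6), compared with 10.64 ± 0.27 for ANIT rats (two-sided exact permutation p = 0.080). Member counts are therefore also given with this level as a covariate. The log2 3'/5' signal ratio of beta-actin reflects RNA integrity. At 24 h vehicle rats averaged 2.84 ± 0.05 (SD, n = 6) and ANIT rats 3.12 ± 0.07, without overlap (exact permutation p = 0.0022, the smallest that 924 splits allow, adjusted p = 0.013 over 6 tests). At 120 h it did not separate the groups (exact permutation p = 0.37).

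At 24 h after ANIT, 6 of the 37 members were called, 1 higher and 5 lower. The fall was carried by 4 glutathione transferases and 1 sulfotransferase, Gstp3, Gstt2, Gstm7, Gstz1 and Sult1c3, and Gstm4 was the one that rose. That is 16.2% of members, and the background over all genes was 18.2% called, with 12.9% higher and 5.31% lower, so the share of members called was near the background. The median change of the members was -0.04, and that of all genes was 0.00. Before adjustment, 10 of the 37 members had a p under 0.05, against 30.9% of all genes. In 3 members, Gstp3, Gstt2 and Sult1c3, the 6 ANIT rats all lay below the 6 vehicle rats, and 7.87% of all genes had groups without overlap. With the control level in the model 7 members were called, all lower, against 19.5% of all genes. Gsto1 and Mgst3 then joined the 5 that fell, and Gstm4 was not called. A model with the beta-actin ratio called the same 5 falls and no other member, 5 of 37, where 6.75% of all genes were called. As the ratio did not overlap between the groups at 24 h, its part and that of ANIT cannot be told apart there.

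**Figure D1:**
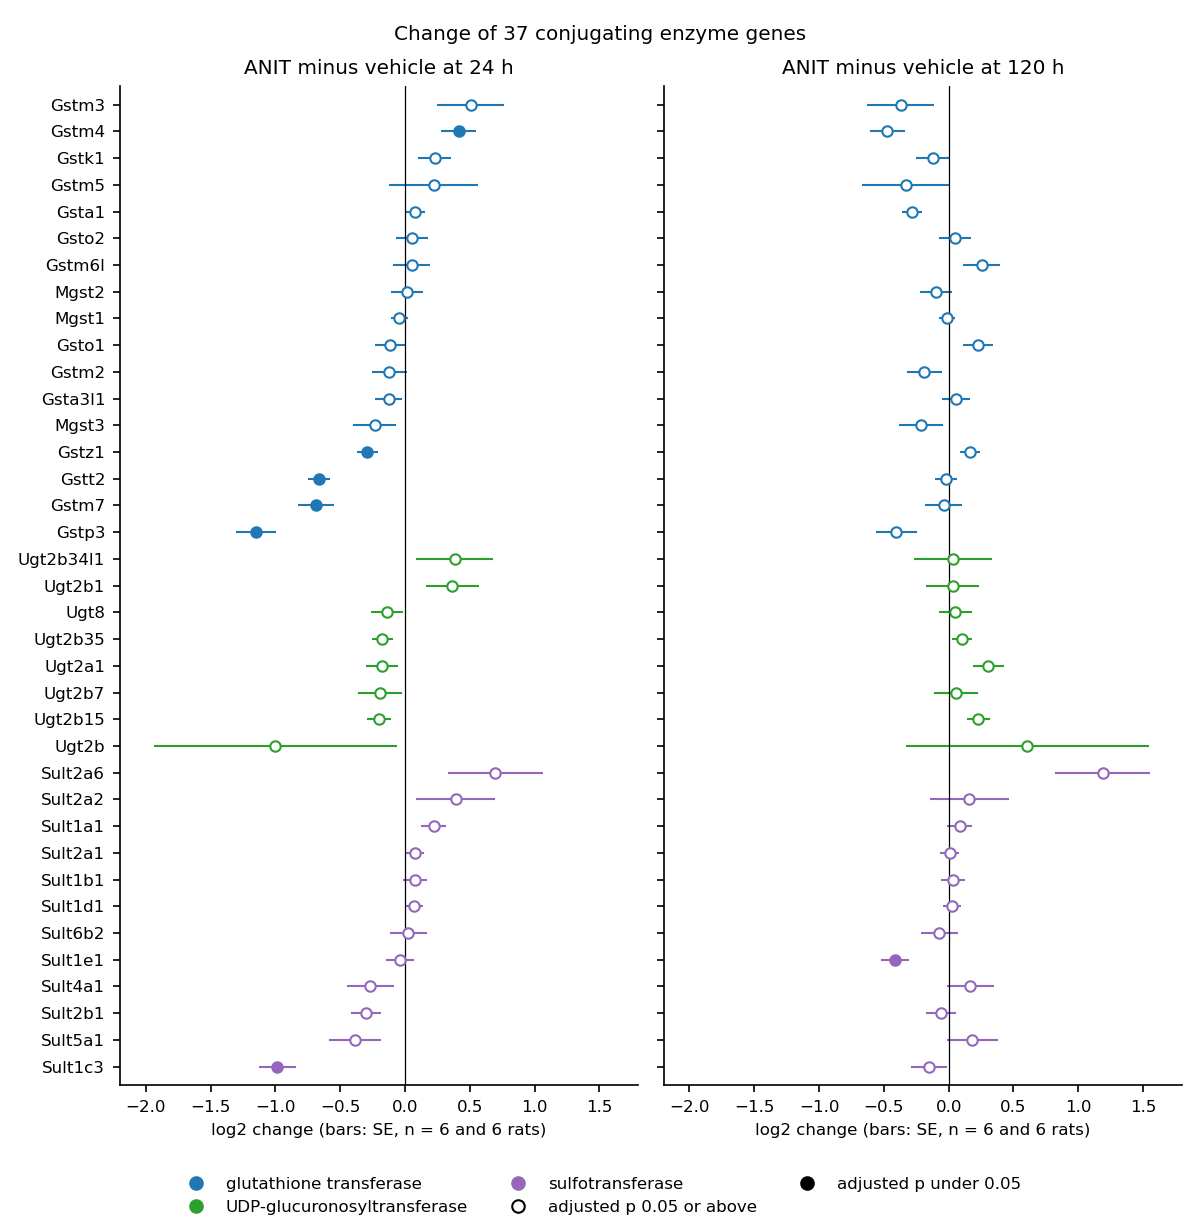
Log2 change of each of the 37 members, ANIT minus vehicle, at 24 h (left) and 120 h (right), with standard errors (n = 6 and 6 rats) and filled symbols at an adjusted p under 0.05. At 24 h, 5 filled symbols lie below 0 and 1 above it, and at 120 h the only filled symbol is Sult1e1.

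Gstp3, a pi-class glutathione transferase, showed the largest called change of the members. In vehicle rats at 24 h its lowest, median and highest level were 11.63, 11.79 and 12.18. In ANIT rats they were 10.29, 10.64 and 11.33, so that the highest ANIT rat stayed below the lowest vehicle rat. The gene fell by 1.15 ± 0.16 on the log2 scale, 2.22-fold (adjusted p = 7.8e-06). At 120 h the vehicle rats had 11.58, 11.60 and 11.95 and the ANIT rats 10.85, 11.34 and 11.81. The groups overlapped again, with 5 of 6 ANIT rats below every vehicle rat, and the change of -0.40 ± 0.16 was not called (adjusted p = 0.22).

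Gstt2, a theta-class glutathione transferase that acts on sulfate esters, had 10.20, 10.40 and 10.54 in vehicle and 9.51, 9.71 and 10.00 in ANIT rats at 24 h. All 6 ANIT rats lay below all vehicle rats. It fell by 0.66 ± 0.09 on the log2 scale, 1.58-fold (adjusted p = 4.1e-06). At 120 h its ANIT rats spanned 10.15 to 10.44 and its vehicle rats 10.23 to 10.47, with a change of -0.02 ± 0.09 (adjusted p = 0.95). A second, dimmer probe set of Gstt2 did not share the fall: its change at 24 h was -0.09 ± 0.15 (adjusted p = 0.73 over all probe sets), and it correlated with the first at r = 0.22 over 24 arrays. With both averaged the change was -0.37, still called. Which of the probe sets follows the transcript better was not tested.

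The mu class split. Gstm7 had 9.24, 9.69 and 9.96 in vehicle and 8.54, 9.0 and 9.35 in ANIT rats at 24 h, and 4 of 6 ANIT rats were below every vehicle rat. It fell by 0.69 ± 0.14 on the log2 scale (adjusted p = 0.0010), and at 120 h its change was -0.04 ± 0.14 (adjusted p = 0.93). Gstm4 moved the other way: its vehicle rats had 6.71, 7.24 and 7.33 and its ANIT rats 7.30, 7.59 and 7.81. The groups overlapped in a narrow range, and 5 of 6 ANIT rats were above every vehicle rat. Gstm4 rose by 0.42 ± 0.14 on the log2 scale (adjusted p = 0.033). With the control level in the model its change was 0.18 (adjusted p = 0.17), and the call was also lost with the array SD (adjusted p = 0.071) or the beta-actin ratio (adjusted p = 0.48) in the model and without the 6 arrays of lowest SD (adjusted p = 0.31). It was lost as well without vehicle replicate 3, 4 or 5 or ANIT replicate 1, 3 or 6 of 24 h (adjusted p up to 0.10 without 1 rat).

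The other mu-class members were not called at either time. Gstm2 had a change of -0.12 ± 0.13 at 24 h and -0.19 ± 0.13 at 120 h. Gstm3 and Gstm5 had wide spreads, with changes of 0.51 ± 0.26 and 0.22 ± 0.34 at 24 h and of -0.37 ± 0.26 and -0.33 ± 0.34 at 120 h. Adding the control level gave a 24 h change of 0.10 for Gstm3 and of -0.34 for Gstm5. Gstm6l had 0.05 ± 0.14 and 0.25 ± 0.14.

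Gstz1, maleylacetoacetate isomerase of tyrosine breakdown, had 9.81, 10.04 and 10.21 in vehicle and 9.66, 9.73 and 9.92 in ANIT rats at 24 h. The ranges overlapped, but 5 of 6 ANIT rats were below every vehicle rat. It fell by 0.29 ± 0.08 on the log2 scale, 1.22-fold (adjusted p = 0.010). When the arrays were shifted to a common median the call was lost (adjusted p = 0.15). At 120 h the order was turned, with 10.06, 10.23 and 10.28 in vehicle and 10.23, 10.40 and 10.49 in ANIT rats. The change of 0.17 ± 0.08 was not called (adjusted p = 0.34).

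Among the other cytosolic glutathione transferases, Gsta1, an alpha-class enzyme that also reduces lipid hydroperoxides, was at 11.65, 11.70 and 11.77 in vehicle and at 11.62, 11.80 and 11.86 in ANIT rats at 24 h. These ranges overlapped, with a change of 0.08 ± 0.08 (adjusted p = 0.53). At 120 h its ANIT rats had 11.12, 11.37 and 11.64 against 11.56, 11.61 and 11.75 in vehicle rats. There 5 of 6 ANIT rats were below every vehicle rat, and the change of -0.28 ± 0.08 missed the threshold (adjusted p = 0.067). It was called lower under 5 of 10 alternatives (lowest adjusted p = 0.015). These were the array SD in the model, quantile normalisation, the mean of probe sets, dim genes left out and another variance model. Gsta1 has 1 probe set, so the mean of probe sets left its own values unchanged. Across the 10 alternatives its change ran from -0.32 to -0.14, with adjusted p up to 0.52. ANIT replicates 4, 5 and 6, on arrays of low SD, had 11.155, 11.116 and 11.334, below the other ANIT rats of 120 h. The kappa-class enzyme Gstk1 had 9.85, 9.90 and 10.46 in vehicle and 10.03, 10.28 and 10.35 in ANIT rats at 24 h, with a change of 0.23 ± 0.13 (adjusted p = 0.23). The omega-class enzyme Gsto1, which reduces dehydroascorbate, had 9.60, 9.89 and 10.02 in vehicle and 9.55, 9.70 and 10.03 in ANIT rats. Both genes had overlapping groups. The change of Gsto1 was -0.12 ± 0.12 (adjusted p = 0.52), and -0.28 (adjusted p = 0.049) with the control level in the model. Gsto2 had 0.05 ± 0.12 at 24 h, and the alpha-class gene Gsta3l1, with a mean level of 3.36 over all arrays, had -0.13 ± 0.11.

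The microsomal glutathione transferases belong to another protein family, set in membranes. Mgst1, an abundant glutathione transferase and peroxidase of liver endoplasmic reticulum, was the steadiest member. Its 24 values lay between 12.64 and 12.87, a 1.17-fold range, and its change was -0.04 ± 0.06 at 24 h and -0.01 ± 0.06 at 120 h. Mgst3 had 9.0, 9.10 and 9.55 in vehicle and 8.65, 8.97 and 9.43 in ANIT rats at 24 h. The ranges overlapped widely, and the change was -0.23 ± 0.17 (adjusted p = 0.36), or -0.43 (adjusted p = 0.048) with the control level in the model. Mgst2, which can form leukotriene C4, had 0.02 ± 0.12 and -0.10 ± 0.12.

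**Figure D2:**
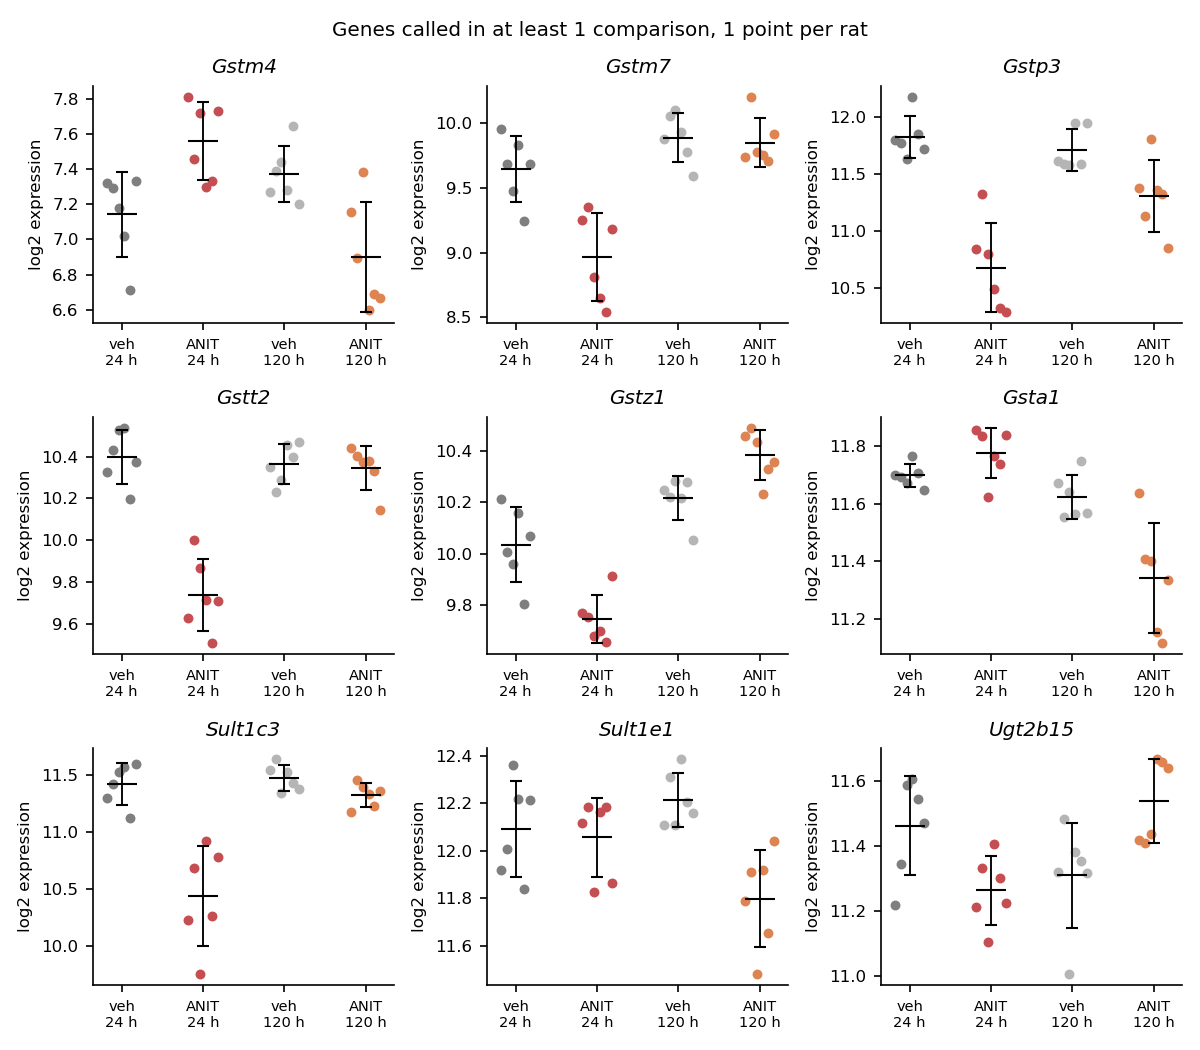
Log2 expression of each rat in the 4 groups (veh, vehicle) for the 9 members called in at least 1 comparison, with a line for the group mean and bars for the SD (n = 6). In Gstp3, Gstt2 and Sult1c3 the ANIT rats at 24 h lie below all vehicle rats of that time, and in Sult1e1 the ANIT rats at 120 h do.

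Sult1c3, a sulfotransferase of rat liver that acts on phenols and on N-hydroxy arylamines, was the 1 sulfotransferase called at 24 h. Vehicle rats had 11.12, 11.47 and 11.59 and ANIT rats 9.75, 10.47 and 10.92, with every ANIT rat below every vehicle rat. It fell by 0.98 ± 0.14 on the log2 scale, 1.98-fold (adjusted p = 1.3e-05). At 120 h the ANIT rats had 11.17, 11.34 and 11.45 and the vehicle rats 11.34, 11.47 and 11.64. The groups overlapped, and the change of -0.15 ± 0.14 was not called (adjusted p = 0.66).

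At 120 h, 1 member was called, Sult1e1, the estrogen sulfotransferase. Its 6 vehicle rats had 12.11, 12.18 and 12.39 and its 6 ANIT rats 11.48, 11.85 and 12.04, without overlap. It fell by 0.42 ± 0.11 on the log2 scale, 1.33-fold (adjusted p = 0.040). At 24 h its vehicle rats had 11.84, 12.11 and 12.36 and its ANIT rats 11.83, 12.14 and 12.18, with a change of -0.04 ± 0.11 (adjusted p = 0.84). The call at 120 h lay close to the threshold: it was lost when the model held the beta-actin ratio, in a fit of the 2 groups alone, without any 1 of the 6 vehicle rats of 120 h and without ANIT replicate 1, 3, 4 or 5 of 120 h, with adjusted p values up to 0.10. The difference of its effects between times, -0.38 ± 0.15, was not called (adjusted p = 0.090).

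That 1 member is 2.7% of the 37, against 2.02% of all genes called at 120 h, 0.513% higher and 1.51% lower. Groups without overlap were found for 2.14% of all genes. With the control level in the model 2 members were called, Sult1e1 and Gstm4, both lower, against 3.94% of all genes. Gstm4 had 7.20, 7.33 and 7.64 in vehicle and 6.60, 6.79 and 7.38 in ANIT rats at 120 h, with overlapping groups. Its change of -0.47 ± 0.14 missed the threshold in the groups alone (adjusted p = 0.072), and was -0.35 (adjusted p = 0.014) with the covariate. The median change of the members at 120 h was 0.03, and that of all genes -0.01.

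The hydroxysteroid sulfotransferase Sult2a6, which sulfates steroids and bile acids, had the largest change of any member at 120 h without a call. Vehicle rats had 8.86, 9.57 and 11.05 and ANIT rats 9.93, 10.75 and 11.84, so that all 6 ANIT rats were above the vehicle median but only 2 were above every vehicle rat. The change was 1.19 ± 0.37, 2.28-fold (adjusted p = 0.099). At 24 h it was 0.70 ± 0.37 (adjusted p = 0.20). With the array SD in the model Sult2a6 was called higher at 120 h. The related Sult2a2 had changes of 0.39 ± 0.30 and 0.16 ± 0.30, and over 24 arrays, with groups and control level removed, the residuals of both genes correlated at r = 0.62. Probe sequences were not used here, so cross-hybridisation between such close relatives was not tested.

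The remaining sulfotransferases were not called at either time. Sult1a1, the main phenol sulfotransferase, had changes of 0.22 ± 0.09 at 24 h (adjusted p = 0.11) and 0.08 ± 0.09 at 120 h. Sult1b1, which sulfates thyroid hormones, had 0.08 ± 0.09 and 0.03 ± 0.09. Sult2b1 had 3.71, 3.92 and 4.08 in vehicle and 3.43, 3.57 and 4.04 in ANIT rats at 24 h, overlapping in 1 ANIT rat, with a change of -0.30 ± 0.11 (adjusted p = 0.069). Its second probe set had 0.07 ± 0.11. Sult5a1 had 4.70, 4.96 and 5.36 in vehicle and 4.26, 4.62 and 5.0 in ANIT rats, also overlapping, with a change of -0.39 ± 0.20 (adjusted p = 0.19). Sult4a1 and Sult6b2 had -0.27 ± 0.18 and 0.03 ± 0.14 at 24 h.

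Low signal limits part of these readings. In all, 14 members had a mean below 5.434, the median of all values, and none of them was called at 24 h or 120 h. The other 23 held all 6 calls of 24 h, and 26.2% of the 8422 genes above that median were called then. They held the 1 call of 120 h too, against 2.96% of those genes. Over all 13438 genes the shares were lower, 18.2% at 24 h and 2.02% at 120 h. Genes below that median were thus called less often than those above it. The absence of calls among the 14 was therefore not read as a property of these members. Sult1d1 lay between 2.63 and 2.91 and Sult2a1 between 2.74 and 3.13 over the 24 arrays, close to the array means of 23 control probe sets without a target, 2.59 to 2.72. A change of these genes could not be read at that level.

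No UDP-glucuronosyltransferase was called at either time. In the fit of the groups alone 6 of the 8 changes were below 0 at 24 h, with a median of -0.18, and all 8 were above 0 at 120 h, with a median of 0.08. Adding the control level gave counts of 5 of 8 below 0 at 24 h and 6 of 8 above 0 at 120 h, and after quantile normalisation 5 of 8 were above 0 at 120 h. Ugt2b15, which conjugates androgens and other steroids, had 11.22, 11.51 and 11.61 in vehicle and 11.10, 11.26 and 11.41 in ANIT rats at 24 h. All 6 ANIT rats were below the vehicle median, within overlapping ranges, and the change was -0.20 ± 0.09 (adjusted p = 0.14). At 120 h its vehicle rats had 11.00, 11.34 and 11.48 and its ANIT rats 11.41, 11.54 and 11.67. There all 6 ANIT rats were above the vehicle median, with a change of 0.23 ± 0.09 (adjusted p = 0.24). ANIT replicates 4, 5 and 6, on arrays of low SD, had 11.67, 11.66 and 11.64. Replicates 1, 2 and 3 had 11.42, 11.41 and 11.44.

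Of the other Ugt2 genes, Ugt2b35 had -0.17 ± 0.08 at 24 h and 0.11 ± 0.08 at 120 h. Ugt2a1, known mainly from olfactory epithelium, had -0.18 ± 0.12 and 0.31 ± 0.12 (adjusted p = 0.33 and 0.24). Ugt2b1 had 0.37 ± 0.21 and 0.03 ± 0.21, Ugt2b34l1 0.38 ± 0.30 and 0.03 ± 0.30, and Ugt2b7 -0.19 ± 0.17 and 0.06 ± 0.17. The change of Ugt2b34l1 at 24 h was -0.01 with the control level in the model. Ugt8, which makes the galactosylceramide of myelin, had 4.42, 4.60 and 4.78 in vehicle and 4.15, 4.48 and 4.76 in ANIT rats at 24 h. Its groups overlapped and its change was -0.14 ± 0.13 (adjusted p = 0.48).

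**Figure D3:**
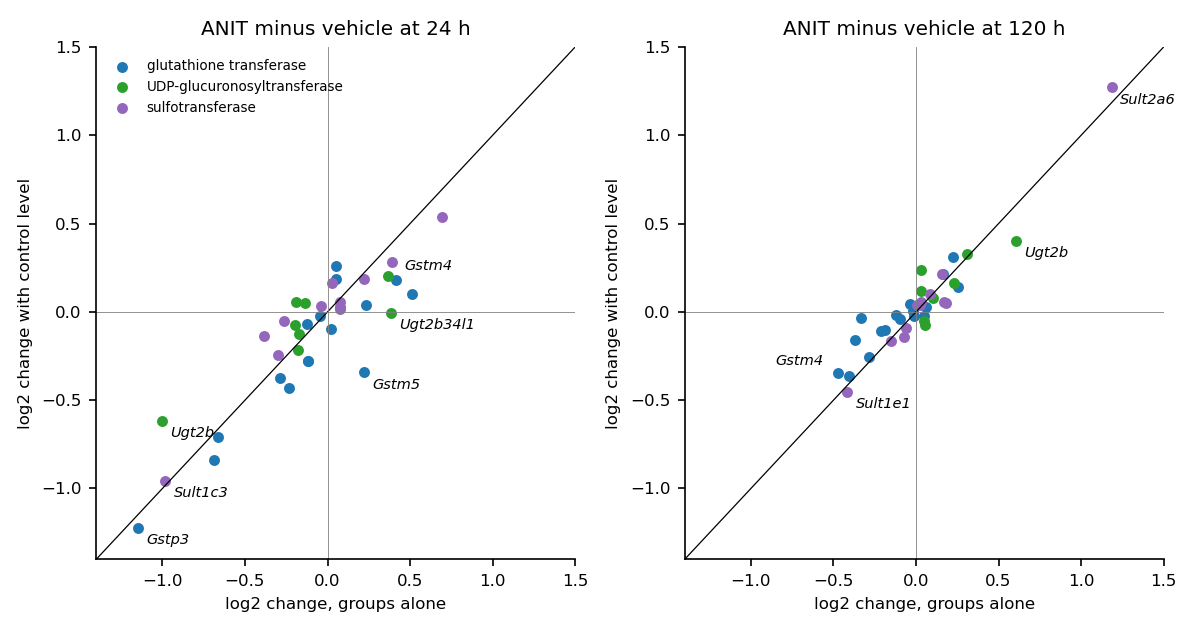
Log2 change of the 37 members in the fit of the groups alone (x axis) against that with the spiked control level as a covariate (y axis), at 24 h (left) and 120 h (right), with a line of equality. At 24 h Gstm4 drops from 0.42 to 0.18 and Gstm5 from 0.22 to -0.34, while Gstp3 and Sult1c3 stay near the line, at -1.22 and -0.96 on the y axis.

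The ANIT effect differed between the times in 8 members, 21.6%, against 14.3% of all genes, 3.33% higher and 11.0% lower at 120 h than at 24 h. In 6 of the 8 the effect was higher at 120 h. Sult1c3 differed by 0.83 ± 0.20 (adjusted p = 0.0059), Gstp3 by 0.74 ± 0.22 (adjusted p = 0.026), Gstm7 by 0.65 ± 0.20 (adjusted p = 0.031), Gstt2 by 0.64 ± 0.12 (adjusted p = 0.00085) and Gstz1 by 0.46 ± 0.11 (adjusted p = 0.0068). These are the 5 members that fell at 24 h. The sixth was Ugt2b15, whose change was negative at 24 h and positive at 120 h without a call at either time, with a difference of 0.43 ± 0.13 (adjusted p = 0.026). The effect was lower at 120 h for Gstm4, with a difference of -0.89 ± 0.19 (adjusted p = 0.0027), and for Gsta1, with -0.36 ± 0.11 (adjusted p = 0.034). Both effects of a gene enter this difference, so it repeats the 24 h values in part. A model with the control level also called 8 members, against 11.7% of all genes, and 6 of them were shared. Gsta1 and Ugt2b15 were then not called (adjusted p = 0.12 and 0.15), and Gsto1 and Sult1e1 were (adjusted p = 0.0065 and 0.039). A model with the beta-actin ratio called 3 members (8.11%), against 3.26% of all genes, and Gstt2 and Gstz1 were shared. Of the 9 alternatives fitted for the difference, 5 kept the call of Gsta1 and 4 that of Ugt2b15 (adjusted p up to 0.70 and 0.57). For Ugt2b15 the call was lost with each of the 3 array covariates, with a common median and without the 6 arrays of lowest SD.

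The vehicle groups of 120 h and 24 h, which differ in time since dosing alone as far as the labels say, gave 0 called members in limma, and 0.00744% of all genes were called. At an unadjusted p under 0.05 there were 6 of 37 members, against 12.2% of all genes. Ugt2b1 stood out among them without a call. Its vehicle rats had 9.58, 9.92 and 10.19 at 24 h and 8.86, 9.15 and 9.55 at 120 h, without overlap, and 0.655% of all genes had vehicle groups without overlap. The difference was -0.76 ± 0.21 (adjusted p = 0.19). Sult1a1 had a difference of 0.35 ± 0.09 (adjusted p = 0.18), with all 6 rats of 120 h above the median of 24 h.

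Values within a group differed far more in some members than in others. The SD between rats within groups had a median of 0.22 over the members and 0.24 over all genes. Yet 6 members (16.2%) lay above the 95th percentile of all genes, and 6 lay below the 5th percentile. The variable ones were Ugt2b, Sult2a6, Gstm5, Sult2a2, Ugt2b34l1 and Gstm3. The steady ones were Mgst1, Sult1d1, Sult2a1, Ugt2b35, Gstz1 and Gsta1, of which Sult1d1 and Sult2a1 were at the level of the controls without a target. Members of 1 family thus stood at both ends: the SD was 1.81 for Ugt2b and 0.11 for Ugt2b35. This SD is of the fit of the groups alone, so differences between arrays enter it too. Within ANIT 120 h the array SD ran from 1.87 to 2.04, lowest in replicates 4, 5 and 6. Gstm3 and Ugt2b34l1 were lower in each of those than in replicates 1, 2 and 3. Ugt2b was higher, and Gstm5, Sult2a2 and Sult2a6 overlapped. The part of the arrays in the spreads was not tested.

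**Figure D4:**
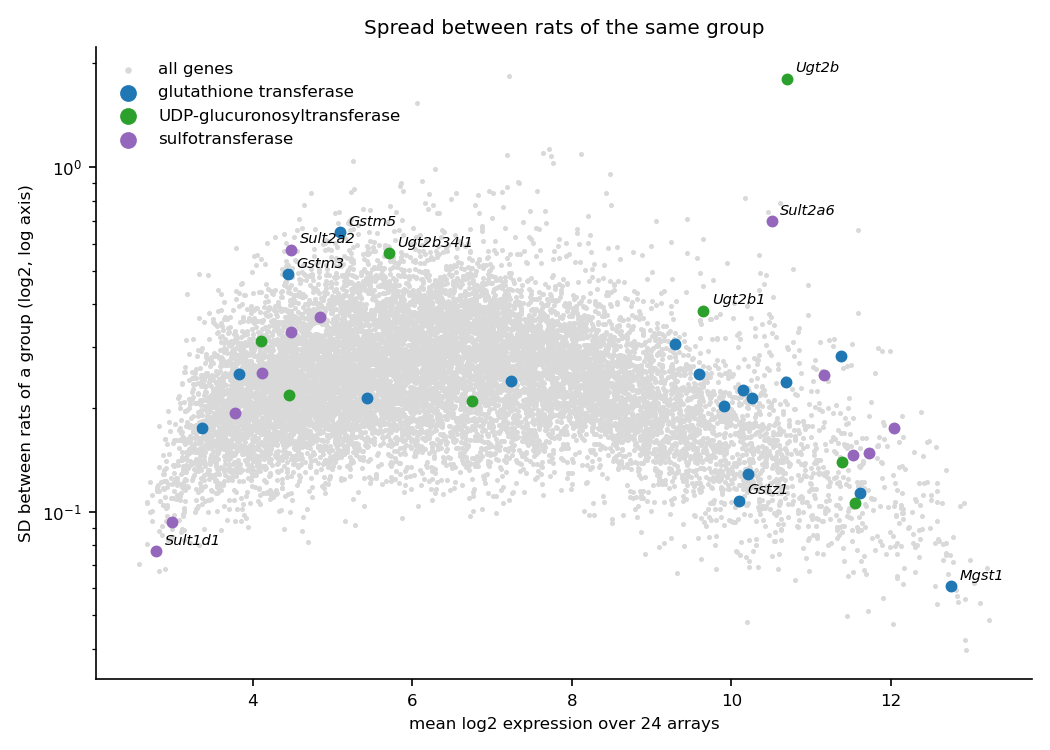
SD of log2 expression between rats within groups (y axis, log scale) against mean log2 expression over 24 arrays (x axis) for all 13438 genes (grey) and the 37 members (coloured by enzyme type). Ugt2b, at an SD of 1.81, stands above nearly all genes of its level, and Mgst1, at 0.06, near the lower edge.

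Ugt2b, known also as Ugt2b2 and as the enzyme that conjugates androsterone, ranked 2 of all 13438 genes by this SD. Its 24 rats spanned 5.39 to 11.99, a 96.9-fold range. In 19 rats the level was 10.57 or more, and in 5 it was below 10. Of these 5, 1 was an ANIT rat at 24 h (replicate 1, 7.42), 3 were vehicle rats at 120 h (replicates 2, 4 and 6, at 7.99, 9.30 and 7.39) and 1 was an ANIT rat at 120 h (replicate 1, 5.39). Low rats thus occurred with and without ANIT. No vehicle rat at 24 h was that low, the lowest there being replicate 3 at 10.74. A second probe set of Ugt2b gave the same 5 rats as its lowest, with values of 6.29, 6.04, 6.79, 5.38 and 5.44 in the same order, and correlated with the first at r = 0.97 over the same 24 arrays. The changes of Ugt2b by ANIT, -1.0 ± 0.94 at 24 h and 0.61 ± 0.94 at 120 h, were no larger than this spread (adjusted p = 0.49 and 0.80).

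Sult2a6 ranked 59 and Gstm5 88 by SD. Within the 120 h groups the same 2 rats were highest in both Sult2a2 and Sult2a6. ANIT replicate 1 had 6.17 for Sult2a2 and 11.84 for Sult2a6, and vehicle replicate 1 had 5.32 and 11.05. In Sult2a2 the other rats of these groups lay between 3.93 and 4.35 and between 3.86 and 4.39. The same ANIT rat had the lowest Ugt2b of all 24 and the highest Ugt2a1 of its group, 7.34 against 6.71 to 6.90 in the others. As a description over 24 arrays, with groups and control level removed, the highest correlations between members were Gsto1 with Mgst2 (r = 0.78), Gstm2 with Ugt2b35 (r = 0.69) and Mgst2 with Ugt2a1 (r = 0.68). Gstp3 and Gstt2, both lower at 24 h, had r = 0.60. The points share the arrays, their signal range and their normalisation.

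**Figure D5:**
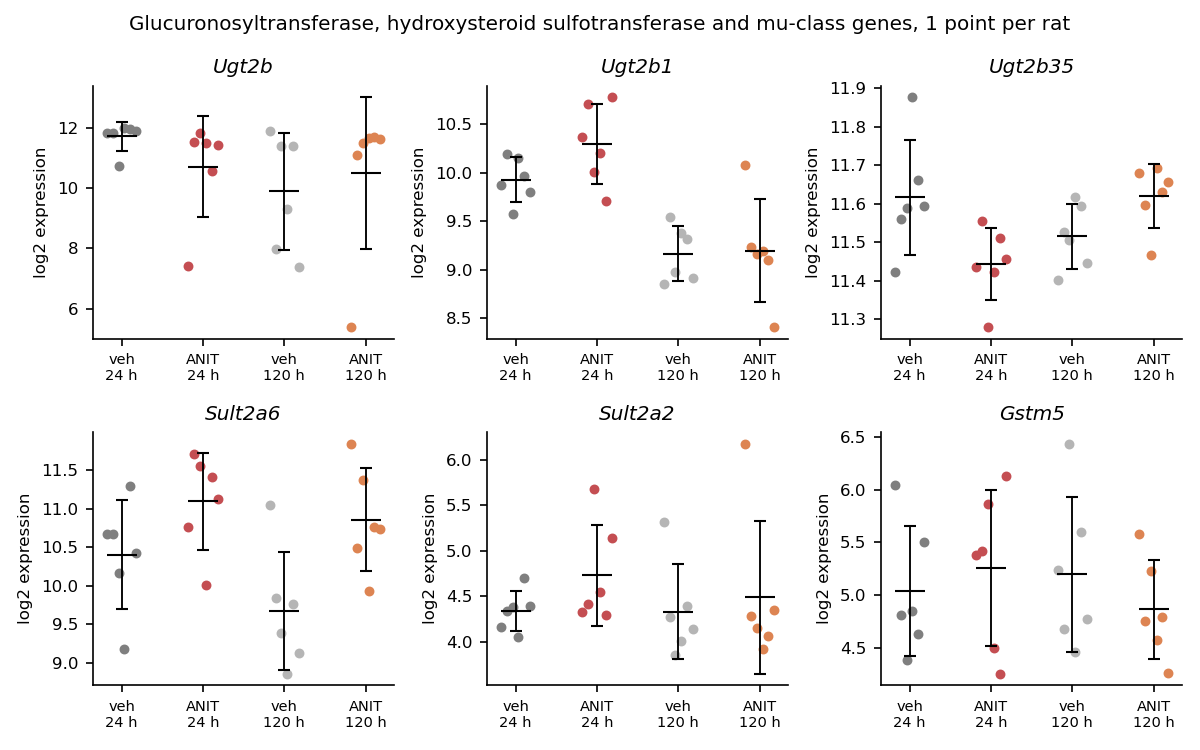
Log2 expression of each rat in the 4 groups (veh, vehicle) for 3 Ugt2 genes, 2 Sult2a genes and Gstm5, with a line for the group mean and bars for the SD (n = 6). The y axes differ: Ugt2b spans 5.39 to 11.99, with low rats in 3 of the 4 groups, while Ugt2b35 spans 11.28 to 11.88.

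Genes listed around the cosubstrates were called in both directions at 24 h, when 18.2% of all genes were called, 12.9% higher and 5.31% lower. At 120 h 2.02% of all genes were called, and the counts of the lists were not tested against these shares. Of 13 measured genes of glutathione supply, 1 rose and 2 fell. Slc7a11, the cystine importer, rose by 1.08 ± 0.26 on the log2 scale (adjusted p = 0.0040). Gclc, the catalytic subunit of the first step of glutathione synthesis, fell by 0.49 ± 0.12 (adjusted p = 0.0054), and Anpep, a peptidase that takes part in glutathione turnover, fell by 0.56 ± 0.14 (adjusted p = 0.0061). At 120 h Gss, glutathione synthetase, fell by 1.02 ± 0.20, without overlap (adjusted p = 0.0056). Of 6 genes around UDP-glucuronate, 1 rose and 2 fell at 24 h, and 0 were called at 120 h. Ugp2, which makes UDP-glucose, fell by 0.89 ± 0.13 (adjusted p = 1.2e-05), and Gusb, the beta-glucuronidase that splits glucuronides, by 0.56 ± 0.10 (adjusted p = 0.00024). Ugdh, which forms UDP-glucuronate, had -0.02 ± 0.08. The 1 that rose was Slc35b1, a nucleotide transporter of the endoplasmic reticulum, by 1.64 ± 0.12 (adjusted p = 7.0e-10).

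Of 12 genes of PAPS and sulfate handling, 3 rose and 2 fell at 24 h, beside 18.2% of all genes called. The PAPS synthases moved apart, Papss1 by 0.45 ± 0.14 (adjusted p = 0.020) and Papss2 by -0.28 ± 0.09 (adjusted p = 0.040). The balance of this list turned with the control level in the model, to 1 called higher and 5 lower, beside 19.5% of all genes. Papss1 and Bpnt2 were then not called (adjusted p = 0.084 and 0.11), and Slc35b2, Suox and Arsb were called lower. Bpnt1, a phosphatase that clears the product PAP, rose by 0.52 ± 0.13 at 24 h (adjusted p = 0.0039) and fell by 0.52 ± 0.13 at 120 h (adjusted p = 0.026). Slc26a1, a sulfate transporter of the hepatocyte membrane, fell at both times, with changes of -0.45 ± 0.10 and -0.64 ± 0.10 (adjusted p = 0.0018 and 0.00064), the latter without overlap.

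Among 7 exporters of conjugates, 3 rose and 1 fell at 24 h, beside 18.2% of all genes called. Abcg2 rose by 1.41 ± 0.20, without overlap (adjusted p = 9.3e-06), and Abcc4 by 0.79 ± 0.24 (adjusted p = 0.023), a call that was lost with the control level in the model (adjusted p = 0.13). Abcc3, which carries glucuronides into blood, rose by 0.54 ± 0.15 at 24 h (adjusted p = 0.012) and by 0.77 ± 0.15 at 120 h (adjusted p = 0.0058). Abcc6 fell by 0.38 ± 0.10 (adjusted p = 0.0089). Abcc2, the canalicular exporter of glutathione conjugates, had -0.21 ± 0.12 and -0.15 ± 0.12. Of 7 conjugating enzymes outside the 3 families 1 rose and 3 fell at 24 h. With the control level these counts were 0 and 5: Nnmt, a nicotinamide N-methyltransferase, went from 0.76 ± 0.23 (adjusted p = 0.023) to 0.53 (adjusted p = 0.11), and Tpmt and As3mt were called lower. Inmt, an N-methyltransferase, fell at both times, with changes of -1.62 ± 0.40 (24 h) and -2.43 ± 0.40, the latter at 120 h (in that order, adjusted p = 0.0051 and 0.0014). Baat, which joins bile acids to taurine or glycine, fell by 0.33 ± 0.07 at 24 h (adjusted p = 0.0015) and Glyat, which joins glycine to benzoate, by 0.52 ± 0.13 (adjusted p = 0.0061).

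Of 17 measured regulators of these families 3 rose and 2 fell at 24 h, and 0 were called at 120 h in limma. The nuclear receptor genes Nr1h4, encoding FXR, and Nr1i3, encoding CAR, fell, with changes of -1.16 ± 0.20 and -0.95 ± 0.25 (adjusted p = 0.00014 and 0.0094). Maff, a small partner of NRF2, rose by 0.94 ± 0.23 (adjusted p = 0.0053), and Stat5b, which relays growth hormone signals, by 0.60 ± 0.15 (adjusted p = 0.0051). Nfe2l2, encoding NRF2, had -0.28 ± 0.11 (adjusted p = 0.090) at 24 h and 0.31 ± 0.11 (adjusted p = 0.19) at 120 h. It was called at both times with the control level in the model, with changes of -0.43 (adjusted p = 0.0012) and 0.39 (adjusted p = 0.010). Ahr, the aryl hydrocarbon receptor, had -0.44 ± 0.18 (adjusted p = 0.086) at 24 h. For the regulators the control level gave 3 called higher and 4 lower at 24 h, and at 120 h 1 higher, Nfe2l2, and 1 lower, Nr1i2, which encodes PXR (-0.36, adjusted p = 0.040). Of 9 related proteins outside the naming rule 3 rose and 0 fell at 24 h: Gstcd by 0.72 ± 0.14, Clic1 by 0.66 ± 0.17 and Eef1g by 0.30 ± 0.09 (adjusted p = 0.00044, 0.0082 and 0.027). Eef1g was not called with the control level in the model (0.17, adjusted p = 0.13). At 120 h 0 of these 9 were called. The median changes of the lists at 24 h were 0.04 for glutathione supply, -0.07 for UDP-glucuronate, -0.10 for PAPS and sulfate, -0.21 for the exporters, -0.21 for the other conjugating enzymes, -0.02 for the regulators and -0.08 for the related proteins, beside 0.00 for all genes.

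Markers of cell types changed with the groups as well, and in whole liver fewer cells of a type and less RNA per cell cannot be told apart. The shares of all genes called were 18.2% at 24 h and 2.02% at 120 h. At 24 h, when 5 members fell, 1 of 9 hepatocyte markers was called higher, Tat, and 1 lower, Ahsg. Alb had -0.14 ± 0.07 (adjusted p = 0.16). The median change of the 9 markers was -0.14, beside 0.00 for all genes. With the control level in the model 0 were called higher and 2 lower. Tat was then not called (adjusted p = 0.22), and Ttr was called lower (adjusted p = 0.048). At 120 h, when Sult1e1 fell, 1 hepatocyte marker was called, Cyp2c11, which fell by 1.19 ± 0.20 (adjusted p = 0.0018). This cytochrome P450 is male-predominant in rats, like Sult1e1 and Sult1c3. Sult1c3 was not called at 120 h (adjusted p = 0.66), and at 24 h, when it fell, Cyp2c11 had -0.16 ± 0.20 (adjusted p = 0.61). Of the Sult2a genes, which are female-predominant, Sult2a6 had 1.19 ± 0.37 at 120 h (adjusted p = 0.099) and Sult2a2 0.16 ± 0.30 (adjusted p = 0.85). Whether these changes belong together was not tested. The mean level of the hepatocyte markers at 120 h ranged from 12.18 to 12.27 in vehicle and from 11.89 to 12.14 in ANIT rats. That of 6 cholangiocyte markers ranged from 4.63 to 4.81 and from 4.89 to 5.12, with Krt19 called higher by 0.73 ± 0.12 (adjusted p = 0.0015). At 24 h these cholangiocyte markers ranged from 4.63 to 4.84 in vehicle and from 4.66 to 4.92 in ANIT rats, with 0 of 6 called. Of 7 neutrophil markers 2 were called higher at 24 h, and of 6 macrophage markers 2. Of 7 stellate cell and 6 lymphocyte markers 2 each were called lower, and of 5 endothelial markers 1 higher and 2 lower. Their part in the changes of the conjugating enzymes was not tested.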

How the data were processed

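Liver RNA of 24 rats was hybridised to 24 one-colour Affymetrix arrays. The deposited table holds log2 expression values for 31139 probe sets, and RMA and Partek are named in the submitters' processing notes, with neither version nor settings given in the sources used here. Deposited values entered unchanged, and no 2 arrays were identical. Array medians ran from 5.34 to 5.54. Gene names came from the platform annotation: 19068 probe sets name 1 gene, 573 several and 11498 had no listed gene. Symbols were checked through Entrez identifiers, with 79 left under the annotation's name.

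Group membership was read from the samples' description labels, and replicate numbers follow accession order. Each of 13438 genes was represented by its single-gene probe set of highest mean. A model of the 4 group means was fitted with limma 3.58.1 (lmFit, eBayes) in R 4.3.3 over all genes, and p values were adjusted by Benjamini-Hochberg over all of them, with a threshold of 0.05 and no minimum fold. The fits were tested on simulated data. Array measures were compared by exact permutation tests, two-sided. The members, gene lists and comparisons were chosen with earlier results of these data known. Full values were given for members called at a time or for the difference between times, and otherwise for the member of each enzyme class with the smallest p at 24 h. Sult2a6, Sult2a2, Ugt2b, Ugt2b1, Ugt2a1 and Mgst1 were singled out after their values were seen. Alternatives were 3 array covariates, quantile normalisation, a common median, the mean of probe sets, leaving out dim genes and only the groups compared. Further ones were leaving out the 6 arrays of lowest SD, another variance model and leaving out each rat. Those 6 arrays were vehicle 24 h replicates 3, 4 and 5 and ANIT 120 h replicates 4, 5 and 6. That fit thus kept fewer rats of those groups. Promoter windows and their coordinates are RefSeq's on GRCr8, matched by Entrez identifier for 31 members. No coordinates of probe sets are given. Tables and figures were made with Python 3.11.15.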

Additional observations from a re-analysis of the deposited data

Results flagged for a closer look

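Within the groups of 6 rats, 15 values stood apart from the other 5 by Dixon's criterion, in 11 members. Chance flags about 1 in 20 groups, 7.4 of the 148 examined. Ugt2b gave 3 of them, all low: 10.74 in vehicle 24 h replicate 3, 7.42 in ANIT 24 h replicate 1 and 5.39 in ANIT 120 h replicate 1. Sult2a2 gave 2, both high, 5.32 in vehicle 120 h replicate 1 and 6.17 in ANIT 120 h replicate 1. Ugt2a1 gave 2, both high, 7.18 in vehicle 24 h replicate 4 and 7.34 in ANIT 120 h replicate 1.

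The other glutathione transferase values were 10.03 for Gstk1 in ANIT 24 h replicate 5, 10.15 for Gstt2 in ANIT 120 h replicate 6 and 10.06 for Gstz1 in vehicle 120 h replicate 6, all low, and 3.81 for Gstm6l in vehicle 120 h replicate 6, high. The other sulfotransferase values were 11.33 for Sult1b1 in vehicle 24 h replicate 3 and 3.90 for Sult5a1 in vehicle 120 h replicate 3, both low, and 4.04 for Sult2b1 in ANIT 24 h replicate 4, high. Ugt2b15 was low at 11.00 in vehicle 120 h replicate 3. Without ANIT 24 h replicate 4, Sult2b1 was called lower at 24 h.

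The ANIT effect differed between 120 h and 24 h, by limma's test of the difference, in 8 members. It was higher at 120 h by 0.83 for Sult1c3, 0.74 for Gstp3, 0.65 for Gstm7, 0.64 for Gstt2, 0.46 for Gstz1 and 0.43 for Ugt2b15. For Gstm4 and Gsta1 the difference was -0.89 and -0.36.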

How the results depend on the processing

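No paired analysis was possible because the replicate numbers only follow accession order and pair no rats. At 24 h, 5 to 7 members were called under the 10 alternatives, where 6.75% to 29.8% of all genes tested were called. The number was 5 to 9 when 1 rat was left out, 9 without vehicle 24 h replicate 1. The falls of Gstp3, Gstt2, Gstm7 and Sult1c3 were called in every one of these fits, and Gstz1 in all but the common median. The 1 higher and 5 lower of the fit of groups alone (18.2% of all genes) became 0 and 7 with the control level (19.5%). They became 0 and 5 with the array SD (21.6%) or the beta-actin ratio (6.75%), and 1 and 4 with a common median (17.2%). At 120 h the 1 call (2.02% of all genes) became 2 with the control level (3.94%), 5 with the array SD (4.85%), 0 with the beta-actin ratio (1.42%), 4 after quantile normalisation (3.42%), 2 with the mean of probe sets (2.14%), 2 with dim genes left out (3.73%), 0 with only the groups compared (1.31%) and 2 with another variance model (2.35%), and 0 to 2 when 1 rat was left out. For the difference between times, the 8 calls (14.3% of all genes) became 3 with the beta-actin ratio (3.26%). They became 3 as well without the 6 arrays of lowest SD (6.34%). In both of these fits fewer of all genes were called too. With a common median the 8 calls became 5, 2 higher and 3 lower, while the share of all genes called stayed near 14.3%. Leaving out 1 rat gave 5 to 11, and Gsta1 (9 rats), Gstm7 (6), Ugt2b15 (3) and Gstp3 (2) each lost the call without some rat. A common median moved the median difference of all genes to -0.13. The vehicle groups gave 0 calls under every alternative and 0 to 1 when 1 rat was left out. The difference could not be fitted with only the groups compared. No member reversed a call. The causes were not tested. Signal near the level of controls without a target limits the readings of Sult1d1 and Sult2a1.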
